A study of Homo sapiens with 6 samples.

Results

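The genes described here are 32 components of protein folding and stress signalling in the endoplasmic reticulum (ER), measured in SH-SY5Y cells with a hairpin against TARDBP or either of a pair of control hairpins. They were chosen by symbol: 10 chaperones and their partners, 6 disulfide isomerases and lectins, 3 stress sensors with the transcription factor XBP1, 10 factors of ER-associated degradation, and the membrane proteins SEC61B and WFS1. All 32 were among the 27961 genes of the files, and 31 had enough counts to be tested. DERL3, a degradation factor, had 3 to 10 counts per library and was not tested.

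SH-SY5Y is a human neuroblastoma line, and TARDBP encodes the RNA-binding protein TDP-43. RNA was sequenced from 6 libraries in 3 groups of 2: hairpin TRCN0000016038 against TARDBP, control hairpin 1 (SHC007) and control hairpin 2 (SHC016). Every group, controls included, was infected by centrifugation with lentivirus and 8 µg/mL polybrene and selected with 2 µg/mL puromycin for 3 days from 48 h after infection, so all cells carried a hairpin and had been through selection. Knockdown rests on a single hairpin, so an effect of that hairpin on other transcripts and an effect of TARDBP loss cannot be told apart. Whether a hairpin's libraries are separate cultures is not stated in the labels, so each p-value reflects no more than the spread among these libraries, and that spread may be technical.

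Proteins that enter the ER are folded by chaperones, joined by disulfide bonds and checked by lectins that read their sugars, and those that fail are pulled back to the cytosol and degraded. When unfolded protein builds up, the membrane sensors IRE1 (ERN1), PERK (EIF2AK3) and ATF6 raise the supply of these same proteins, a programme called the unfolded protein response. IRE1 acts by splicing XBP1 mRNA, ATF6 by release of its cytosolic part after cleavage in the Golgi, and PERK by phosphorylating the translation factor eIF2 alpha. Counts per gene do not separate spliced from unspliced XBP1, nor cleaved from whole ATF6, so only the amounts of the mRNAs are described.

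Library totals ran from 18605745 to 21698339 counts. Levels are CPM, each library's counts on a common total after TMM scaling, which aligns libraries on genes that differ little. TARDBP itself stood at 18.9 and 24.0 CPM with its hairpin against 72.3 to 92.6 CPM in the 4 control libraries, 26.2% of the mean control level. A call below means an adjusted p under 0.05 from edgeR's quasi-likelihood test with Benjamini-Hochberg adjustment over all 17163 genes and repeat families tested, and the words rose, fell, higher and lower are used only of calls. Changes are log2 fold changes with their standard error (SE). Each comparison with the TARDBP hairpin uses the same TARDBP hairpin libraries, so the comparisons are not independent of each other.

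Most chaperones and isomerases of the ER, along with XBP1, were lower with the TARDBP hairpin, while ATF6 was higher. The 32 genes together took 0.264% and 0.281% of the counts in the TARDBP hairpin libraries, 0.339% and 0.358% in those of control hairpin 1, and 0.430% and 0.422% in those of control hairpin 2. The 3 groups thus did not overlap in this summed share, and the control hairpins lay apart from each other. Against the mean of both control hairpins, 15 of the 31 genes tested were lower (48.4%, against 24.3% of all features tested) and 4 were higher (12.9%, against 23.9%), 19 calls in all (61.3%, against 48.2%). Their median log2 fold change was -0.32, against 0.04 over all features tested. In 19 of the 31 both TARDBP hairpin libraries lay below all 4 control libraries (61.3%, against 22.8% of all features tested), and in DNAJC3 and ATF6 they lay above all 4 (6.45%, against 23.3%), which made 21 beyond the controls on either side (67.7%, against 46.1%). No call was made in any comparison for DNAJB9, SIL1, PDIA6, CANX, EIF2AK3, SYVN1, EDEM3 and WFS1.

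**Figure D1:**
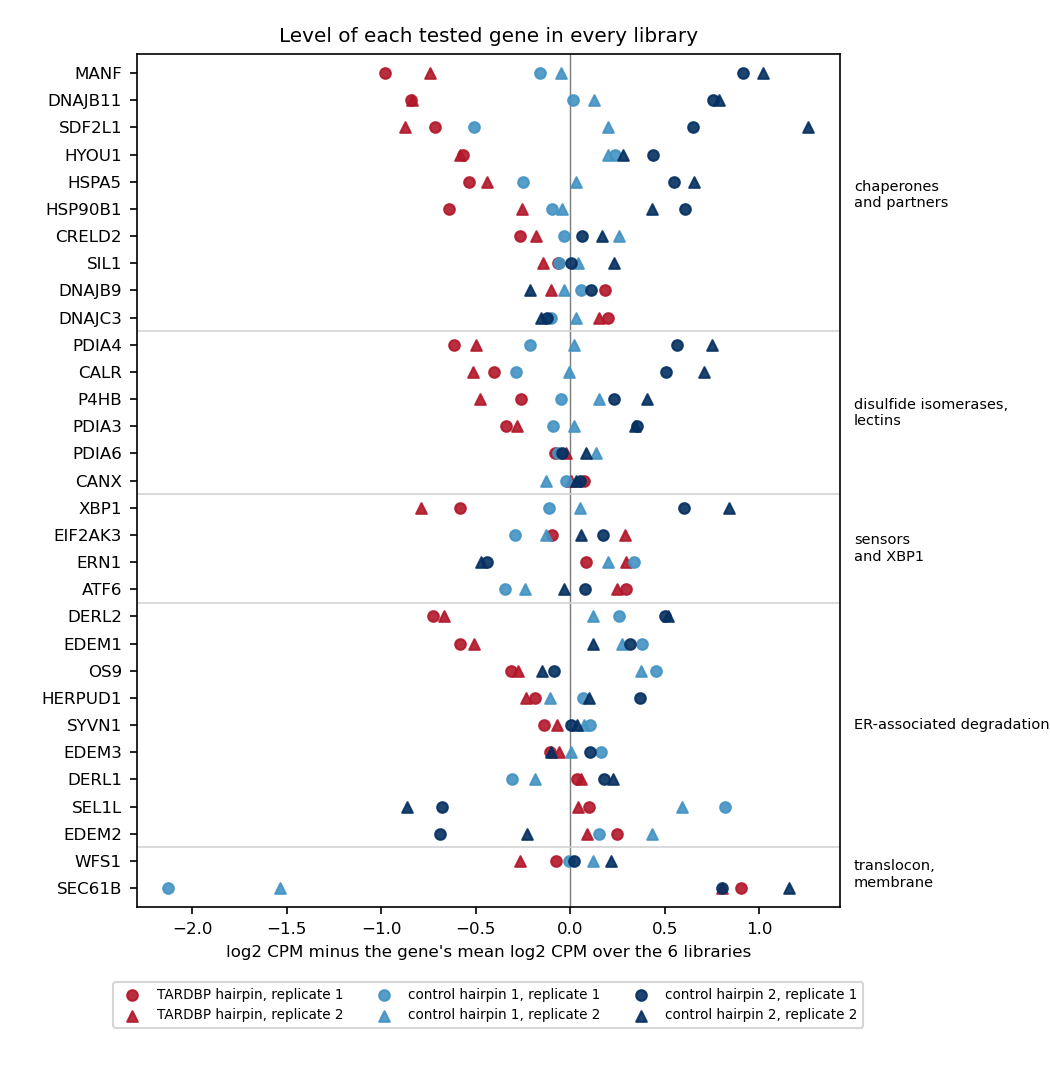
Level of each of the 31 tested genes in every library, as log2 CPM minus the gene's mean over the 6 libraries (horizontal axis), with genes grouped by role. Red points are the TARDBP hairpin, light blue control hairpin 1 and dark blue control hairpin 2, and circles and triangles are replicates 1 and 2. In 13 genes, among them MANF, DNAJB11, HSPA5, PDIA4 and XBP1, the red points lie leftmost, the light blue points next and the dark blue points rightmost.

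The promoters of several of these genes hold the elements by which the unfolded protein response is known to act, and those elements are shown first because the genes that carry them include the chaperones and XBP1 described next. Sequences are from RefSeq on GRCh38.p14, which had promoter windows of 250 bases before to 50 bases after the gene start for 29 of the 32 genes (not for PDIA3, DERL1 and DERL3). The windows were searched on both strands for the ER stress element ERSE (CCAAT, any 9 bases, CCACG), for ERSE-II (ATTGG, any 1 base, CCACG) and for the unfolded protein response element UPRE (TGACGTGG). At least 1 was found in any window of 10 of the 29 genes (34.5%). Counted by window and not by gene, 0.857% of all 35116 windows in the table held 1. Counted by gene, 159 of the tested genes had an element in any window and 11550 had none. ERSE alone was in 0.0769% of all windows, ERSE-II in 0.0541% and UPRE in 0.729%. A match is a match of letters and no sign of binding, and a missing match says only that these letters are not in the window. Each stretch below is written 5′ to 3′ on the strand of its gene with 5 bases on either side, and capitals mark the fixed letters of the element. An element read from the other strand appears as its reverse complement.
HSPA5 ERSE, chr9:125241386-125241414, minus strand: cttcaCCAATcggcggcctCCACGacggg
HSP90B1 first ERSE, chr12:103930211-103930239, plus strand: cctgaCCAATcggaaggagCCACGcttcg
HSP90B1 second ERSE, chr12:103930316-103930344, plus strand: gggtgCGTGGtgcggcgcgATTGGtgggt
HYOU1 first ERSE-II, chr11:119057375-119057395, minus strand: cgtgaCGTGGtCCAATcccag
HYOU1 second ERSE-II, chr11:119057269-119057289, minus strand: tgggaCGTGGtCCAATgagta
SDF2L1 ERSE-II, chr22:21642109-21642129, plus strand: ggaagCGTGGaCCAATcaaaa
CRELD2 ERSE, chr22:49918549-49918577, plus strand: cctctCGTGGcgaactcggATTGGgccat
PDIA6 ERSE, chr2:10812848-10812876, minus strand: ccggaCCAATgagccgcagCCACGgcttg
CALR ERSE, chr19:12938379-12938407, plus strand: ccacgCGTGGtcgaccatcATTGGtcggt
CANX ERSE, chr5:179698773-179698801, plus strand: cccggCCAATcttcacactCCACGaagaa
XBP1 ERSE, chr22:28800598-28800626, minus strand: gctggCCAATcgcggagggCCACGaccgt
HERPUD1 ERSE-II, chr16:56932020-56932040, plus strand: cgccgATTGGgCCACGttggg
The first ERSE-II of HYOU1 overlaps a UPRE, at chr11:119057381-119057398 with its flanks. In HSPA5 the ERSE begins 66 bases before the gene start, and in HERPUD1 the ERSE-II begins 117 bases before it. RefSeq gave 2 starts each for XBP1 and PDIA6, and the ERSE begins 52 and 86 bases before 1 of them, while the window of the other start held no element. CANX had 4 starts, and the windows of 3 of them held the same ERSE.

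For HSPA5 and XBP1, whose levels carry much of what follows, the 250 bases before the gene start (for XBP1, the start next to its ERSE) are given whole, with the fixed letters of the ERSE again in capitals. HSPA5 lies at chr9:125241344-125241593 and XBP1 at chr22:28800570-28800819, both on the minus strand.
HSPA5: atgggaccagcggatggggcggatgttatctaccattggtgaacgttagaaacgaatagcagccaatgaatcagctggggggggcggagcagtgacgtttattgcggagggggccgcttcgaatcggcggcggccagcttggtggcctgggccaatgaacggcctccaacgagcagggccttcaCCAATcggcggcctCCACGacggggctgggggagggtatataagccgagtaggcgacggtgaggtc
XBP1: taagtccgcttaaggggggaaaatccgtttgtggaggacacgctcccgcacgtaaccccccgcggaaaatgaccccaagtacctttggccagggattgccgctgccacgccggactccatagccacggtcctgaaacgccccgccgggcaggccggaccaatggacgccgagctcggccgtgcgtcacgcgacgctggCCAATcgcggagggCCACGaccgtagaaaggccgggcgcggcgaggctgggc

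Of the 10 chaperones and partners, 7 were lower and 1 was higher against the mean of both control hairpins, with a median log2 fold change of -0.70. HSPA5 encodes BiP, the ER Hsp70 that also holds the sensors silent. It was at 188 and 201 CPM with the TARDBP hairpin, 229.9 and 278 CPM with control hairpin 1, and 399 and 429 CPM with control hairpin 2. The groups did not overlap, and control hairpin 2 stood well above control hairpin 1. HSPA5 thus reached 60.0% of the mean control level, a log2 fold change of -0.74 ± 0.10 (SE, adjusted p = 0.000509). The fall was -1.09 ± 0.11 against control hairpin 2 and -0.39 ± 0.11 against control hairpin 1. The smaller of these was called with all libraries (adjusted p = 0.0220) but not without either TARDBP hairpin library or without control hairpin 1 replicate 2 (HSPA5 adjusted p = 0.0552 to 0.124).

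Among the co-chaperones of BiP, DNAJB11 (ERdj3), which delivers unfolded chains to it, was at 19.95 and 20.03 CPM in the TARDBP hairpin libraries. It was at 36.1 and 39.0 CPM with control hairpin 1 and at 60.4 and 61.8 CPM with control hairpin 2. Replicates lay close together and the 3 groups far apart, and DNAJB11 stood at 41.7% of the mean control level (log2 fold change -1.26 ± 0.09, adjusted p = 2.40e-05). MANF, a secreted ER stress protein with trophic effects on neurons, was at 11.3 and 13.3 CPM with the TARDBP hairpin, 19.97 and 21.6 CPM with control hairpin 1, and 42.1 and 45.3 CPM with control hairpin 2. This was the lowest value of the 31 genes relative to control, 40.9% (log2 fold change -1.29 ± 0.11). The falls of DNAJB11 and MANF against each control hairpin were called also without any 1 of the 6 libraries.

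SDF2L1, a partner of DNAJB11, was at 5.74 and 5.14 CPM with the TARDBP hairpin, 6.62 and 10.8 CPM with control hairpin 1, and 14.8 and 22.6 CPM with control hairpin 2. The control replicates lay far apart, and its change of -1.23 ± 0.25 had the widest error of the group. The fall was called against control hairpin 2 (-1.78) and not against control hairpin 1 (-0.68, adjusted p = 0.0847). HYOU1, an ER Hsp110 that exchanges nucleotide on BiP, was at 119 and 118 CPM, against 202 to 239 CPM over the 4 control libraries. It fell by similar amounts against either control, -0.79 ± 0.09 against control hairpin 1 and -0.94 ± 0.09 against control hairpin 2, and the control hairpins did not differ by call (0.14, adjusted p = 0.220).

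HSP90B1, the ER Hsp90 known as GRP94, was at 221 and 288 CPM with the TARDBP hairpin, 322 and 334 CPM with control hairpin 1, and 523 and 465 CPM with control hairpin 2. The TARDBP hairpin replicates differed here more than those of control hairpin 1. The fall was -0.96 against control hairpin 2 and -0.37 against control hairpin 1, where HSP90B1 only just passed the threshold (adjusted p = 0.0499). That second call was lost in 4 of the 6 fits that each left out 1 library (all but those without TARDBP hairpin replicate 2 or control hairpin 2 replicate 2), and HSP90B1 changed by -0.19 without TARDBP hairpin replicate 1 and by -0.57 without replicate 2.

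The remaining chaperones changed less. CRELD2, a secreted stress protein, was lower against the mean of both controls (-0.34 ± 0.11, adjusted p = 0.0380), a call that was lost in 5 of the 6 fits without 1 library (all but that without control hairpin 1 replicate 1) and with upper-quartile scaling. DNAJC3 (p58IPK), a BiP co-chaperone, was at 52.0 and 50.3 CPM against 40.5 to 46.2 CPM in the control libraries, the only chaperone above all 4. Its rise of 0.26 ± 0.08 (adjusted p = 0.0264) was likewise lost in 5 of the 6 fits (all but that without control hairpin 1 replicate 2). DNAJB9 (ERdj4), a BiP co-chaperone that represses IRE1, had a log2 fold change of 0.06 ± 0.13, and SIL1, a nucleotide exchange factor of BiP, one of -0.16 ± 0.12. Neither was called.

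**Figure D2:**
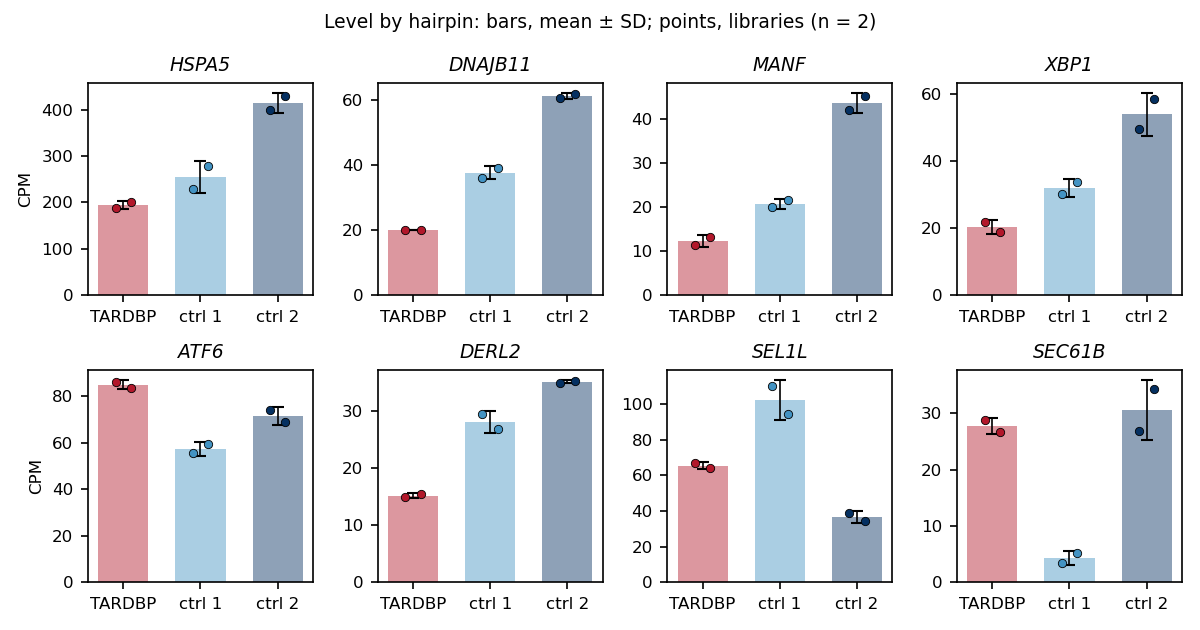
Levels in CPM (vertical axes, from 0, with a scale for each gene) of 8 genes in the 3 hairpin groups. Bars are means, error bars SD (n = 2) and points single libraries. HSPA5, DNAJB11, MANF, XBP1 and DERL2 are lowest with the TARDBP hairpin and highest with control hairpin 2, ATF6 is highest with the TARDBP hairpin, SEL1L is highest with control hairpin 1, and SEC61B is low with control hairpin 1 alone.

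Of the 6 disulfide isomerases and lectins, 4 were lower and none was higher against the mean of both control hairpins, with a median log2 fold change of -0.51. The share lower was 66.7%, beside 24.3% of all features tested. PDIA4 (ERp72), which forms and reshuffles disulfide bonds, was at 134 and 145 CPM with the TARDBP hairpin, 176 and 208 CPM with control hairpin 1, and 302.5 and 344 CPM with control hairpin 2. As for BiP, the groups were in that order without overlap. PDIA4 reached 55.8% of the mean control level (-0.84 ± 0.10, adjusted p = 0.000290). P4HB, the abundant protein disulfide isomerase, changed by -0.55 ± 0.10 and PDIA3 (ERp57), which serves proteins held by the lectins, by -0.47 ± 0.07. P4HB and PDIA3 were lower against each control hairpin. The 3 falls against control hairpin 1 alone, of -0.47 for PDIA4, -0.42 for P4HB and -0.27 for PDIA3, were each lost without control hairpin 1 replicate 2 (adjusted p of 0.0632, 0.100 and 0.129). They were also lost without TARDBP hairpin replicate 1 (PDIA4 and PDIA3) or replicate 2 (P4HB and PDIA3).

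CALR, the soluble lectin calreticulin, was at 276 and 255 CPM with the TARDBP hairpin, 299 and 364 CPM with control hairpin 1, and 519 and 595 CPM with control hairpin 2. Control hairpin 2 stood apart, and the fall was called against it (-1.07 ± 0.12) and not against control hairpin 1 (-0.32 ± 0.12, adjusted p = 0.0606). CALR passed the threshold against control hairpin 1 without replicate 1 of that hairpin (-0.46, adjusted p = 0.0272) or without control hairpin 2 replicate 2 (-0.35, adjusted p = 0.0457). CANX, the membrane-bound lectin calnexin that works on the same glycoproteins, was at 398 to 457 CPM in all 6 libraries. Its log2 fold change was 0.05 ± 0.07, and that of the isomerase PDIA6 was -0.08 ± 0.09. PDIA6 and CANX were called in no comparison, although both hold an ERSE.

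Of the 3 sensors and XBP1, XBP1 was lower and ATF6 and ERN1 were higher against the mean of both control hairpins. XBP1, the transcription factor activated by IRE1, was at 21.8 and 18.8 CPM with the TARDBP hairpin, 30.1 and 33.8 CPM with control hairpin 1, and 49.4 and 58.4 CPM with control hairpin 2. It followed the order of the chaperones, at 48.9% of the mean control level (-1.03 ± 0.12, adjusted p = 0.000224). The fall was -0.65 ± 0.13 against control hairpin 1 and -1.41 ± 0.13 against control hairpin 2. XBP1 kept both calls when any 1 of the 6 libraries was left out.

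ATF6, the sensor that becomes a transcription factor, was at 86.1 and 83.4 CPM with the TARDBP hairpin, 55.3 and 59.6 CPM with control hairpin 1, and 74.0 and 68.6 CPM with control hairpin 2. Both TARDBP hairpin libraries lay above all control libraries, and ATF6 was the only member higher against each control hairpin (3.23%, against 10.6% of all features tested). ATF6 changed by 0.40 ± 0.08 against the mean of both controls (adjusted p = 0.00311) and by 0.56 ± 0.09 against control hairpin 1. The change against control hairpin 2 was 0.25 ± 0.09, and ATF6 was close to the threshold there (adjusted p = 0.0484). That last call was lost in each of the 6 fits without 1 library (ATF6 0.16 to 0.30, adjusted p = 0.0635 to 0.336), with the replicate number as a block (adjusted p = 0.0794) and with DESeq2 (adjusted p = 0.124).

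ERN1, which encodes IRE1, was at 26.1 and 30.3 CPM with the TARDBP hairpin, 31.1 and 28.2 CPM with control hairpin 1, and 18.15 and 17.7 CPM with control hairpin 2. The TARDBP hairpin and control hairpin 1 overlapped, and control hairpin 2 alone was low. Its rise of 0.29 ± 0.10 against the mean of both controls (adjusted p = 0.0449) was lost in 5 of the 6 fits without 1 library (all but that without TARDBP hairpin replicate 1). It was also lost with a replicate block (ERN1 adjusted p = 0.0713) and with DESeq2 (adjusted p = 0.108). EIF2AK3, which encodes PERK, was at 32.7 and 42.8 CPM with the TARDBP hairpin, 30.3 ± 2.42 CPM (mean and SD, n = 2) with control hairpin 1, and 39.5 and 36.4 CPM with control hairpin 2. The groups overlapped and its change of 0.15 ± 0.12 was not called.

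Of the 9 degradation factors tested, 3 were lower (33.3%, against 24.3% of all features tested) and none was higher against the mean of both control hairpins, with a median log2 fold change of -0.16. DERL2, a derlin of the channel that returns proteins to the cytosol, was at 14.8 and 15.5 CPM with the TARDBP hairpin, 29.3 and 26.7 CPM with control hairpin 1, and 34.8 and 35.2 CPM with control hairpin 2. The TARDBP hairpin libraries stood far below every control library, at 48.4% of the mean control level (-1.05 ± 0.10, adjusted p = 9.00e-05). EDEM1, which marks misfolded glycoproteins by trimming mannose, was at 83.1 and 87.2 CPM against 135 to 162 CPM in the 4 control libraries. It fell by nearly the same amount against each control hairpin, -0.87 ± 0.10 and -0.77 ± 0.10, and the control hairpins did not differ by call (-0.11, adjusted p = 0.404). The falls of DERL2 and EDEM1 against each control hairpin were called also without any 1 library.

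OS9, a lectin that hands trimmed glycoproteins to the degradation complex, was at 78.3 and 80.4 CPM with the TARDBP hairpin, 133 and 126 CPM with control hairpin 1, and 91.6 and 87.9 CPM with control hairpin 2. Here control hairpin 1 was the high group, and the fall was called against it (-0.71 ± 0.08) and not against control hairpin 2 (-0.18 ± 0.08, adjusted p = 0.114). SEL1L, the scaffold of that complex, lay between the controls. It was at 66.8 and 64.1 CPM with the TARDBP hairpin, 109.8 and 94.0 CPM with control hairpin 1, and 38.9 and 34.2 CPM with control hairpin 2. SEL1L was therefore lower against control hairpin 1 (-0.64 ± 0.11) and higher against control hairpin 2 (0.84 ± 0.11). It was the only member with that pair of calls (3.23%, against 0.903% of all features tested). No member had the reverse pair, whose share over all features was not counted. Both calls of SEL1L were kept without any 1 library.

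EDEM2 and DERL1, relatives of EDEM1 and DERL2, had other patterns. EDEM2 was at 13.0 and 11.6 CPM with the TARDBP hairpin, 12.1 and 14.8 CPM with control hairpin 1, and 6.79 and 9.32 CPM with control hairpin 2. It was higher against control hairpin 2 (0.61 ± 0.19), a call lost without TARDBP hairpin replicate 1 (0.52, adjusted p = 0.104 for EDEM2) or control hairpin 2 replicate 1 (0.40, adjusted p = 0.152). DERL1 was at 49.4 and 50.1 CPM with the TARDBP hairpin, 38.8 and 42.3 CPM with control hairpin 1, and 54.4 and 56.4 CPM with control hairpin 2. Its rise of 0.29 ± 0.09 against control hairpin 1 was lost in each of the 6 fits without 1 library (DERL1 adjusted p = 0.0593 to 0.188) and with a replicate block (adjusted p = 0.0516).

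HERPUD1, which gathers the degradation complex at the membrane, was at 14.0 and 13.5 CPM with the TARDBP hairpin, 16.6 and 14.7 CPM with control hairpin 1, and 20.5 and 17.0 CPM with control hairpin 2. The libraries were in the order of the chaperones without overlap, but with small steps. Its fall was called against control hairpin 2 alone (-0.45 ± 0.14), and was lost without either TARDBP hairpin library or without control hairpin 2 replicate 1 (HERPUD1 adjusted p = 0.0680 to 0.162). SYVN1, the ubiquitin ligase HRD1 that SEL1L supports, changed by -0.16 ± 0.09 and EDEM3 by -0.13 ± 0.09 against the mean of both controls, and neither was called.

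SEC61B, the beta subunit of the channel through which new proteins enter the ER, set control hairpin 1 apart from the other two. It was at 28.7 and 26.7 CPM with the TARDBP hairpin, 3.52 and 5.28 CPM with control hairpin 1, and 26.8 and 34.3 CPM with control hairpin 2. The counts behind the low group were 69 and 108, against 509 to 728 in the other 4 libraries. SEC61B was 6.28-fold higher with the TARDBP hairpin than with control hairpin 1 and 6.92-fold higher with control hairpin 2 than with control hairpin 1. Against control hairpin 2 the TARDBP hairpin changed it by -0.14 ± 0.17 (adjusted p = 0.531). Its call against the mean of both controls (1.26 ± 0.16) thus rests on control hairpin 1, and with the controls pooled as 1 group of 4 libraries SEC61B was not called (0.67, adjusted p = 0.635). Among the 11461 features whose mean log2 CPM reached 3, the difference of SEC61B between the control hairpins ranked 77 by size. WFS1, the ER membrane protein of Wolfram syndrome, changed by -0.26 ± 0.11 and was not called.

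Against each control hairpin in turn, 13 of the 31 genes were lower against control hairpin 1 (41.9%, against 21.8% of all features tested) and 3 were higher (ATF6, DERL1 and SEC61B, 9.68%, against 21.1%), 16 calls in all (51.6%, against 42.9%). With upper-quartile scaling 9 were lower and 5 higher against control hairpin 1, beside 3079 lower and 4575 higher of all 17163 features. The share of members called in either direction was then near that of all features. The share lower was above that of all features, and the share higher below it. Against control hairpin 2, 14 were lower (45.2%, against 26.2%) and 5 were higher (DNAJC3, ERN1, ATF6, SEL1L and EDEM2, 16.1%, against 24.0%), 19 calls in all (61.3%, against 50.2%). The genes lower against each of them were 11 (35.5%, against 14.0%): HSPA5, HSP90B1, HYOU1, DNAJB11, MANF, P4HB, PDIA3, PDIA4, XBP1, EDEM1 and DERL2. For 6 of the 11, namely HYOU1, DNAJB11, MANF, XBP1, EDEM1 and DERL2, both calls were kept in every fit without 1 library. HSPA5, HSP90B1, P4HB and PDIA3 lost the call against control hairpin 1 with upper-quartile scaling (adjusted p = 0.0523 to 0.133), which left 7 of the 11. Of the 5 higher against control hairpin 2, ERN1 and SEL1L kept the call in every such fit, and DNAJC3 (0.32 ± 0.10) lost it without any 1 of the TARDBP hairpin or control hairpin 2 libraries (adjusted p = 0.0653 to 0.149). Without control hairpin 1 replicate 2, fewer genes were called against control hairpin 1. The share of members called was then near that of all features tested in that fit. Their median change there was -0.23, beside 0.04 over all features. With all 6 libraries the median change was -0.27 against control hairpin 1 and -0.29 against control hairpin 2, beside 0.03 and 0.02 over all features tested.

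**Figure D3:**
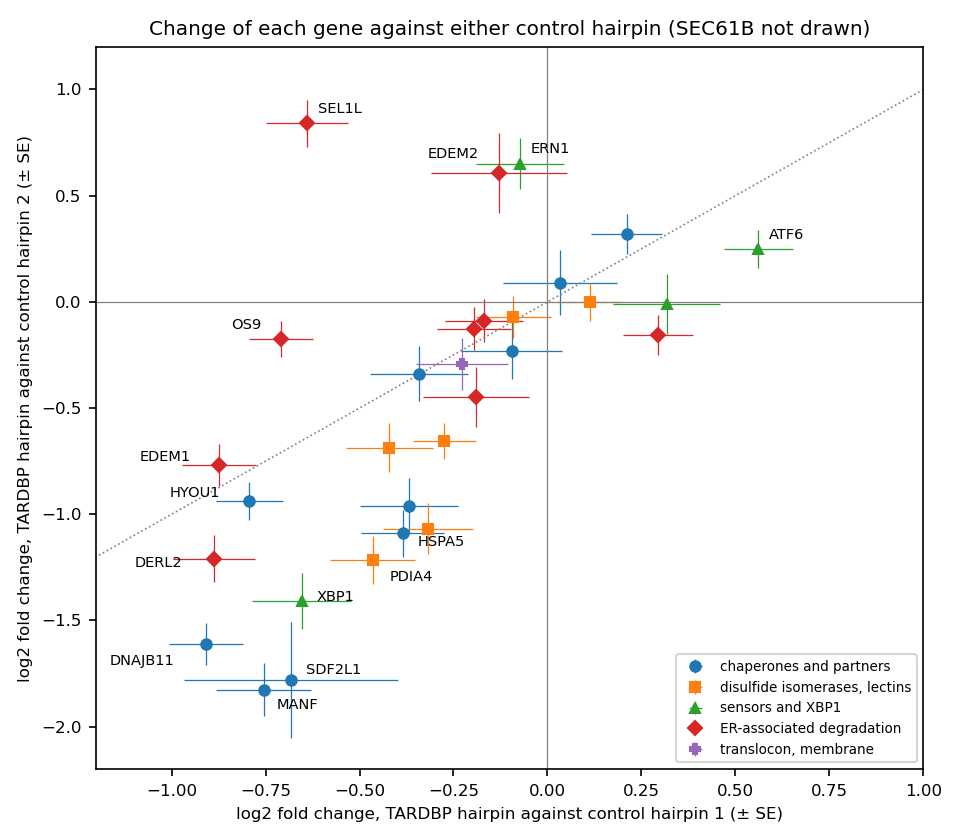
Log2 fold change of each gene with the TARDBP hairpin against control hairpin 1 (horizontal axis) and against control hairpin 2 (vertical axis), with SE bars, coloured by role. The dotted line marks equal change, both axes use the same TARDBP hairpin libraries, and SEC61B (2.65 and -0.14) lies outside the range drawn. HYOU1 and EDEM1 lie near the line at the lower left, HSPA5, MANF, PDIA4 and XBP1 lie below it, and SEL1L lies at the upper left.

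The control hairpins also differed from each other. With control hairpin 2, 13 of the 31 genes were higher than with control hairpin 1 (41.9%, against 22.8% of all features tested) and 4 were lower (12.9%, against 20.4%), 17 calls in all (54.8%, against 43.2%), with a median log2 difference of 0.26, beside -0.01 over all features tested. Those higher included MANF (1.07 ± 0.12), SDF2L1 (1.10 ± 0.26), XBP1 (0.76 ± 0.13), PDIA4 (0.75 ± 0.11), CALR (0.75 ± 0.12), HSPA5 (0.70 ± 0.11) and DNAJB11 (0.70 ± 0.09). Without control hairpin 1 replicate 1, 8 were higher and 4 lower, and 8 of the 13 were higher in every fit without 1 library (HSPA5, HSP90B1, DNAJB11, MANF, PDIA4, CALR, XBP1 and SEC61B). The difference of SDF2L1 lost its call without replicate 1 of control hairpin 1 (0.79, adjusted p = 0.0663) and without replicate 2 of control hairpin 2 (0.77, adjusted p = 0.0798). The 4 lower were SEL1L (-1.48), EDEM2 (-0.74), ERN1 (-0.72) and OS9 (-0.53). In 13 of the 31 genes the libraries were in the order TARDBP hairpin, control hairpin 1, control hairpin 2 with no overlap between groups (41.9%, against 9.08%). For MANF the difference between the control hairpins (1.07) was larger than that between the TARDBP hairpin and control hairpin 1 (-0.75), and this order of sizes, which was not tested, also held for HSPA5, HSP90B1, SDF2L1, PDIA3, PDIA4, CALR and XBP1, among others. Of the 11 genes lower with the TARDBP hairpin against each control hairpin, 8 were also higher with control hairpin 2 than with control hairpin 1 (25.8% of the 31, against 3.35%), all but HYOU1, P4HB and EDEM1. A fit that pooled the controls as 1 group, and so counted this difference as spread, called 4 members, all lower: HYOU1, DNAJB11, EDEM1 and DERL2. Of all 17163 features it called 1054 higher and 1518 lower. The share of members called in either direction was thus below that of all features, and the share lower was above it.

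A wider list of 120 other genes of ER translocation, folding, glycosylation, export, degradation and stress signalling was compared in the same fit, and 119 could be tested (not ERN2). Against the mean of both control hairpins 48 were lower (40.3%, against 24.3% of all features tested) and 21 higher (17.6%, against 23.9%), with a median log2 fold change of -0.20. Of the 48 falls, 32 were called in every fit without 1 library and 22 with pooled controls, and of the 21 rises 13 and 5. Genes were ranked where they were called, averaged 3 or more on the log2 CPM scale and had both TARDBP hairpin libraries beyond all 4 control libraries. The largest falls of that kind were those of QSOX1, a sulfhydryl oxidase (-2.02), DDOST, a subunit of the oligosaccharyltransferase (-1.59), SEC11C, a signal peptidase subunit (-1.50), and FAF2, a degradation factor (-1.47). The largest rises of that kind were those of TMX1, a transmembrane thioredoxin (0.84), FAM8A1, a partner of the HRD1 complex (0.75), STIM2, an ER calcium sensor (0.72), and SAR1B, a GTPase of ER export vesicles (0.65). TMX1 and SAR1B were low with control hairpin 1 alone and lost their calls with pooled controls. Rises of ITPR3 (1.10), ERO1A (0.95) and RCN1 (0.71) were called but did not meet those conditions. ITPR3 missed by its level and ERO1A by overlap with control hairpin 2. RCN1 lay between the control hairpins, higher than control hairpin 1 (2.05) and lower than control hairpin 2 (-0.64). Of the 18 export and retrieval genes, 12 were lower and none higher against control hairpin 2 (66.7% lower, against 26.2% of all features tested). Against control hairpin 1, 5 of them were lower (27.8%, against 21.8%) and 4 higher (22.2%, against 21.1%), with a median of 0.07. With control hairpin 2, 13 were higher (72.2%, against 22.8%) and none lower than with control hairpin 1.

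The signalling list, which holds the steps around the sensors, was set against the mean of both control hairpins. Of its 18 genes tested, 6 were lower (33.3%, against 24.3% of all features tested) and 3 were higher (16.7%, against 23.9%). The 3 higher were NFYA (0.65), CREB3L2 (0.28), a relative of ATF6, and EIF2S1 (0.21), the target of PERK. The calls of CREB3L2 and EIF2S1 were lost with DESeq2 and without most libraries: CREB3L2 in 4 of the 6 fits (all but those without replicate 1 of the TARDBP hairpin or of control hairpin 1) and EIF2S1 in all 6. NFYA is a subunit of the factor NF-Y that binds the CCAAT part of the ERSE, and of its other subunits NFYC was lower (-0.87) and NFYB was not called (-0.26). ATF4 (-0.88), the transcription factor of the PERK arm, was lower. Of its targets in the list, TRIB3 was lower (-0.96), while CHAC1 (-0.34), ASNS (-0.19) and PPP1R15A (0.03) were not called. DDIT3 (CHOP), another of them, was at 4.45 and 7.37 CPM against 5.21 to 7.64 CPM and was not called either. The proteases that cleave ATF6 were both lower, chosen for mention after their values were seen. MBTPS1 was at 66.8 and 74.8 CPM against 109 to 121 CPM in the control libraries, and MBTPS2 at 32.4 and 30.6 CPM against 63.6 to 68.5 CPM. Both lay below all 4 control libraries, by log2 fold changes of -0.69 and -1.05, while ATF6 lay above them.

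Set beside the promoter elements printed above, 7 of the 10 genes with an element were lower against the mean of both control hairpins and none was higher, with a median log2 fold change of -0.68. The 7 were HSPA5, HSP90B1, HYOU1, SDF2L1, CRELD2, CALR and XBP1. Of the 19 genes with a searched window and no element, 7 were lower and 4 higher, with a median of -0.16. Against control hairpin 1, 4 of 10 were lower with an element (40.0%, median -0.35) and 8 of 19 without (42.1%, median -0.20). Against control hairpin 2, 7 of 10 were lower with an element (70.0%, median -0.95) and 6 of 19 without (31.6%, median -0.14). Between the control hairpins 5 of the 10 (HSPA5, HSP90B1, SDF2L1, CALR and XBP1) were higher and none lower, with a median of 0.42, and of the 19 without an element 6 were higher and 4 lower, with a median of 0.06. Over all features tested 22.8% were higher. DNAJB11, MANF, DERL2 and EDEM1 were among the largest falls and had none of these letters in the window. Over all 159 tested genes with an element, 30.8% were lower and 23.3% higher against the mean of both controls, with a median of -0.06, and over 11550 tested genes without one 27.2% were lower and 23.0% higher. These counts are a description of chosen genes and were not tested.

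**Figure D4:**
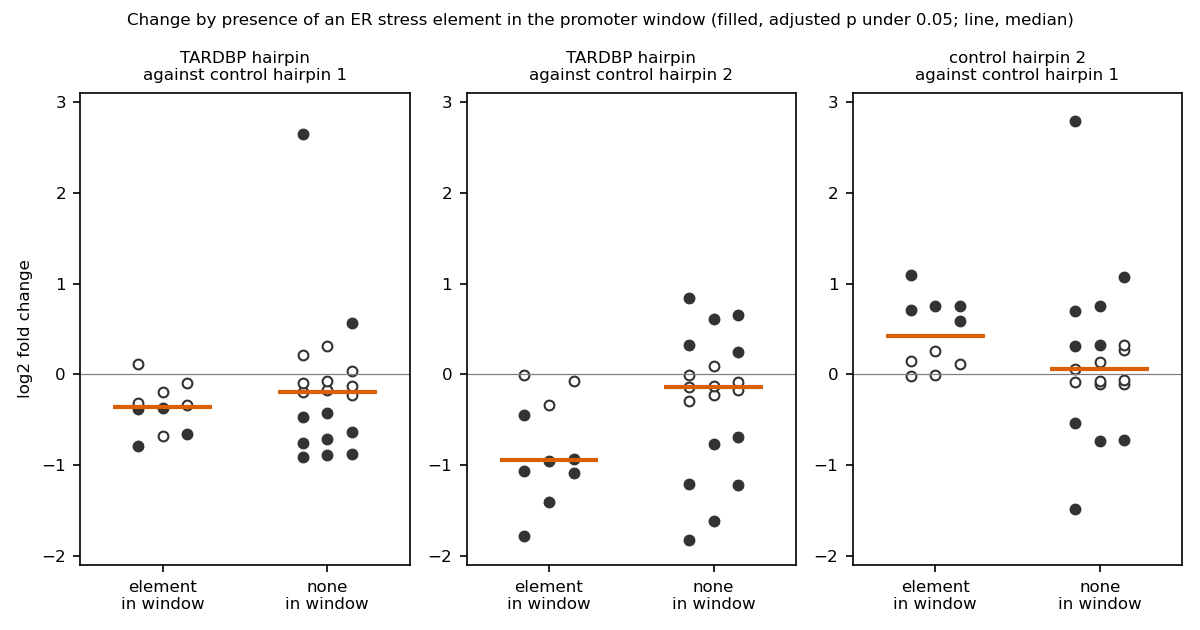
Log2 fold change (vertical axes) of the 10 genes with and the 19 genes without an ERSE, ERSE-II or UPRE in the promoter window, in 3 comparisons. Filled points passed an adjusted p of 0.05 and orange lines are medians. Against control hairpin 2, 7 of the 10 genes with an element are filled and lie below 0, while points without an element lie on both sides of 0. Against control hairpin 1, 4 of the 10 and 8 of the 19 are filled below 0.

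Summed markers of growth and of the mesenchymal state moved with these genes, while those of the noradrenergic state did not keep the same order. The summed level of 6 proliferation markers was 79.7 and 80.8 CPM with the TARDBP hairpin, 144 and 212 CPM with control hairpin 1, and 569 and 599.7 CPM with control hairpin 2, and all but PCNA were lower with the TARDBP hairpin. The summed level of 10 mesenchymal or fibroblast markers, which include collagens and fibronectin that are made in the ER, was 832 to 890.2 CPM, 2096 to 2145 CPM and 4349 to 4697 CPM in the same order, with 5 lower and 1 (DCN) higher of the 9 tested and PRRX1 at 0 in every library. Both sums follow the order of the 13 genes above, and their part in the result was not tested. FN1 and COL3A1 made up most of the mesenchymal sum. FN1 was at 525 to 580 CPM with the TARDBP hairpin or control hairpin 1 and at 2326 and 2777 CPM with control hairpin 2. COL3A1, COL1A1, COL1A2 and LUM kept the order without overlap, while FN1, SNAI2, TWIST1, CD44 and DCN did not. Noradrenergic markers of neuroblastoma summed to 1222 and 1083 CPM with the TARDBP hairpin. Their sum was 1687 and 1952 CPM with control hairpin 1 and 1489 and 1679 CPM with control hairpin 2. Of the 9 tested, 6 were lower and 2 (GATA3 and TFAP2B) higher. DBH was at 14.7 and 25.5 CPM with the TARDBP hairpin against 184 to 430.0 CPM, and TH was at 0 to 0.147 CPM in every library. Markers of professional secretory cells summed to at most 0.471 CPM and Schwann or glial markers to at most 3.17 CPM. Immune markers summed to 5.81 to 19.2 CPM, nearly all of it CD68, with PTPRC at 0 to 0.282 CPM. In bulk RNA, fewer cells of a kind and less RNA per cell cannot be told apart.

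In the annotation of GENCODE 29, 13 of the 32 genes overlap another gene of the files, such as DNAJB11 and TBCCD1, DERL2 and MIS12, CRELD2 and ALG12, and SYVN1 and FAU, the last on the same strand. Details of how the counting treated strand were not given in the sources used here, so reads of these pairs may be shared. TBCCD1 had 194 and 208 counts with the TARDBP hairpin against 386 in each of those libraries for DNAJB11, and MIS12 had 396 and 568 against 287 and 298 for DERL2.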

How the data were processed

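The submitters' processing notes name bcl2fastq, STAR 2.5.2b and the build hg19. The authors deposited raw read counts per gene symbol and repeat family, 1 file per library. The tool, annotation and strand setting of the counting, and its handling of multi-mapping reads, were not given in the sources used here. Per the labels' protocols, Trizol-extracted RNA went through Ribo-Zero Gold and a strand-specific NEBNext Ultra II Directional preparation.

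The tools were R 4.3.3 and edgeR 4.0.16, with limma 3.58.1 and DESeq2 1.42.0 as alternatives. Of 28953 genes and repeat families, 17163 passed filterByExpr by hairpin (minimum count 10, minimum total 15). A quasi-likelihood model with 3 hairpin groups and TMM scaling was fitted to all 6 libraries, with residual and prior degrees of freedom of 3 and 5.41. The spread beyond counting noise, which edgeR calls biological variation and which may here be technical, was 10.5%. Benjamini-Hochberg adjustment ran over all features. SE was derived from the log2 fold change and its F statistic. The code was tested on simulated data. Replicates of a hairpin differed beyond sampling noise (chi-square of 18.7 to 21.8 per degree of freedom), so they were not repeated sequencing of the same library. This cannot show whether they came from separate cultures.

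The 32 genes, the wider list, the marker lists and the tests were chosen with earlier results of these data known. Named were all 32 genes, TARDBP and, from the wider list, the 4 largest falls and 4 largest rises among called genes with mean log2 CPM of at least 3 and both TARDBP hairpin libraries beyond all 4 control libraries, and every gene of a count of at most 5. The other genes named from the wider list and the genes overlapping members were chosen after their values were seen. Alternatives covered scaling, the filter, the tool, genes alone, a replicate block, pooled controls, a test against a 1.5-fold change and leaving out each library.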

Additional observations from a re-analysis of the deposited data

Results flagged for a closer look

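For 5 genes the change with the TARDBP hairpin had opposite signs against the control hairpins, with a call against at least 1 of them. They were picked by that rule from the 17 members called between the control hairpins. In the rest of the 17 the size of the change also depended on the control hairpin used. The difference tested is that between the control hairpins themselves (control hairpin 2 minus control hairpin 1, log2), since the TARDBP hairpin libraries are common to both changes. SEC61B changed by 2.65 against control hairpin 1 and by -0.14 against control hairpin 2, a difference of 2.79 (adjusted p = 5.23e-05). SEL1L changed by -0.64 and by 0.84, a difference of -1.48 (adjusted p = 6.38e-05). ERN1 changed by -0.07 and by 0.65, a difference of -0.72 (adjusted p = 0.00202), and EDEM2 by -0.13 and by 0.61, a difference of -0.74 (adjusted p = 0.0133). DERL1 changed by 0.29 and by -0.16, a difference of 0.45 (adjusted p = 0.00567). The difference of EDEM2 lost its call without replicate 2 of control hairpin 1 (-0.59, adjusted p = 0.0748) and without replicate 1 of control hairpin 2 (-0.53, adjusted p = 0.0775), and that of DERL1 without control hairpin 1 replicate 1 (adjusted p = 0.0513).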

How the results depend on the processing

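With 2 libraries per hairpin, small changes of single genes were the least stable. Of the 15 falls against the mean of both control hairpins, 14 (all but CRELD2) were called under all 3 other scalings and without each library, and of the 4 rises 2 were (ATF6 and SEC61B). Leaving out 1 library gave 16 to 17 called genes against the mean of both controls (2 to 3 higher, 14 to 15 lower), 10 to 17 against control hairpin 1, 15 to 19 against control hairpin 2 and 12 to 16 between the control hairpins. The lone library of a hairpin was then assumed to vary like those of the other groups. Tested against a 1.5-fold change, 9 were called against the mean of both controls (1 higher, 8 lower), 5 against control hairpin 1, 11 against control hairpin 2 and 3 between the control hairpins. Over all features that test called 1027 higher and 1435 lower against the mean of both controls, beside 4102 and 4167. It called 1241 higher and 1381 lower of the 17163 features against control hairpin 1, and 1108 and 1873 against control hairpin 2. Between the control hairpins it called 1484 and 626. The share of members called was near that of all features against control hairpin 1, below it between the control hairpins and above it in the other comparisons. With the controls pooled as 1 group 4 members were called (0 higher, 4 lower), and over all features 1054 higher and 1518 lower. The share of members called was below that of all features in that fit. Only 2 members were higher with total counts as the scaling or with DESeq2. Upper-quartile scaling moved the median of all features from 0.04 to 0.17 and the share of calls that were higher from 49.6% to 63.4% against the mean of both controls, from 49.1% to 59.8% against control hairpin 1 and from 47.8% to 61.4% against control hairpin 2. The median of the members moved with it, from -0.32 to -0.20 against the mean of both controls. Single members were followed only against the mean of both control hairpins, over all alternatives but 1 added after seeing the data. Of these values 439 kept direction and call, which includes genes called in neither fit. A further 48 lost and 3 gained the call, and 6 changed sign, none of them called. Those were DNAJB9 (-0.092 to 0.197 without 1 library, below 0 without TARDBP hairpin replicate 1 or control hairpin 2 replicate 2), PDIA6 (0.042 with upper-quartile scaling), CANX (-0.0022 with total counts), EIF2AK3 (-0.053 to 0.331 without 1 library, below 0 without TARDBP hairpin replicate 2) and SEL1L (-0.081 with pooled controls). The causes were not tested.

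Replicate numbers did not pair the libraries: deviations of same-numbered libraries correlated by -0.23 and -0.25 between the TARDBP hairpin and control hairpins 1 and 2, and by 0.23 between the controls. A replicate block gave 18 called members against the mean of both controls, 13 against control hairpin 1, 18 against control hairpin 2 and 16 between the control hairpins. With the numbers of the TARDBP hairpin libraries exchanged, an alternative added after seeing the data, the block gave 21, 22 and 22 in the comparisons with the TARDBP hairpin.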

Other observations

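SEC61B was not the only ER gene low with control hairpin 1. Among the ER genes described whose mean log2 CPM reached 3, 8 of 141 (5.67%) were called at least 2-fold lower with control hairpin 1 than with each of the other hairpins, beside 285 of 11461 (2.49%) of all features at that level. They were SEC61B, ERO1A, ITPR2, RCN1, SAR1B, SPCS3, TMED2 and TMX1, chosen by this rule after the data were seen. ERO1A, the oxidase that recharges protein disulfide isomerase, was at 15.5 and 19.5 CPM with control hairpin 1, against 63.8 to 66.8 CPM in the other 4 libraries. RCN1, a calcium-binding protein of the ER lumen, was at 11.4 and 16.1 CPM, against 56.1 and 57.9 CPM with the TARDBP hairpin and 86.2 and 91.3 CPM with control hairpin 2. Control hairpin 1 was the low group in each, and against control hairpin 2 the TARDBP hairpin changed ERO1A by -0.01 and RCN1 by -0.64.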
